A study of Caenorhabditis elegans with 2 samples.

Results

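Chromatin bound by RPC-1, which is the largest of the RNA polymerase III subunits, was immunoprecipitated and sequenced, and 378 of the 1840 reproducible nuclear peaks lay at promoters of protein-coding genes away from small RNA genes. Reproducible is used here only as the name of the deposited list thresholded by the irreproducible discovery rate. It does not mean a peak in each replicate, which 328 of the 378 had. Members were nuclear peaks whose summit fell from 500 bp before to 250 bp after the 5′ end of an annotated protein-coding gene. They also lay at least 500 bp from any tRNA gene, tRNA pseudogene, rRNA, snRNA, RNase P, RNase MRP, Y or signal recognition particle RNA gene, and over 250 bp from any snoRNA or miRNA gene. Peaks at promoters of genes named rpl, rps or hsp were left out. Of the nuclear peaks, 486 had a summit in a protein-coding promoter, of which 65 were lost to the first class of small RNA genes, 15 to snoRNA and miRNA genes and 28 to rpl, rps and hsp promoters. The 378 member peaks marked 466 target genes.

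There was 1 group of 2 samples, biological replicates 1 and 3, with no comparison of conditions. Both were whole young adult hermaphrodites of Caenorhabditis elegans from strain JK1107, which carries glp-1(q224) III, and both expressed RPC-1 fused at its C terminus to GFP and FLAG. An anti-GFP antibody was used, and the labels give neither the growth temperature nor the promoter of the fusion. Replicate 1 was sonicated in a Bioruptor and replicate 3 by microtip, so shearing and replicate cannot be told apart. The peak lists hold no read counts, so depth is unknown. Whole animals were used, so neither the tissue of a peak nor the number of cells behind it can be told from these lists.

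RNA polymerase III makes tRNAs, 5S rRNA, U6 snRNA and a few other short RNAs, while protein-coding genes are transcribed by RNA polymerase II. At tRNA genes it is recruited through the A and B boxes, short elements inside the transcribed sequence that are read by the factor TFIIIC. A peak at a protein-coding promoter shows where the tagged protein was recovered with DNA, and says nothing by itself about transcription there.

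The strongest members differed in the elements around their summits, and their summit sequences are shown for that reason. Each line gives the summit base with 50 bases on either side, on the plus strand of ce11 and read from the RefSeq copy of that assembly, for the 8 members of highest signal. Capitals mark an exact match, on either strand, to the tRNA B-box consensus, the B-box core GTTCGANNC, the A-box core TGGCNNAGT or the heat shock unit GAANNTTC, where N is any base.
T13C5.6, chrX:6207845-6207945: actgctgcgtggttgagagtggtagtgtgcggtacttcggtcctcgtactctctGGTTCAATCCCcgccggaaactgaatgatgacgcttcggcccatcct
W01D2.3, chrII:14804462-14804562: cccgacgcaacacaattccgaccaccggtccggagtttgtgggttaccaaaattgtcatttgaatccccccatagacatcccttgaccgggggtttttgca
ZK816.3, chrX:3348020-3348120: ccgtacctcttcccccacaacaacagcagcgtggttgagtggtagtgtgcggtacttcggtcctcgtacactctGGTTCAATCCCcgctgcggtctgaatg
sms-3, chrIII:1601582-1601682: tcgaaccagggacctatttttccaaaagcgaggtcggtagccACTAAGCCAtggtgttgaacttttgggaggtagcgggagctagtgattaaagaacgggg
W08A12.2, chrV:3686065-3686165: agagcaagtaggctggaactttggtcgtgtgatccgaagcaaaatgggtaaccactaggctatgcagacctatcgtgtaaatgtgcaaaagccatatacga
Y43F8B.17, chrV:19484677-19484777: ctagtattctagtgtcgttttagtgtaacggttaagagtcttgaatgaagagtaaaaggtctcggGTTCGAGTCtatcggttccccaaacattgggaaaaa
F44E5.4 and F44E5.5, chrII:11759414-11759514: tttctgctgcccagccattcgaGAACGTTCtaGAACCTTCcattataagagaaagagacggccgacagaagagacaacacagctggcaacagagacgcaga
R107.5, chrIII:9054012-9054112: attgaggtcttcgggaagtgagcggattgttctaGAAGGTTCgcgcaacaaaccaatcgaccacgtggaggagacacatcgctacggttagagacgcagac

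The windows at T13C5.6 and ZK816.3 each held a B-box consensus match and shared an identical run of 33 bases, although they lie far apart on X. Both summits fell inside annotated genes of the class ncRNA, C14F11.14 at T13C5.6 and ZK816.8 at ZK816.3, which the rule does not remove. The W01D2.3 summit also fell inside an ncRNA gene, W01D2.7, and its window held no A-box or B-box match. The A-box core used here was found in only 64 of 534 tRNA peaks, so a window without it may still hold an A box. The sms-3 window lay 2950 bp from the nearest gene of the removed classes, and 2 B-box cores and 2 A-box cores were found within 150 bp of its summit. In contrast, the F44E5.4 and F44E5.5 window held no A-box or B-box match but 7 heat shock units within 150 bp of the summit, and the R107.5 window held 2. Of the 8 strongest members, 4 held the B-box core or consensus and 2 held a heat shock unit, against 16 and 80 of all 378 members.

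The strongest member, at T13C5.6, had a signal of 12277 in the reproducible list, where signal is the enrichment score that the authors deposited for each peak, on a scale of its own in each list. It ranked 4 in the replicate 1 list and 4 in the replicate 3 list. T13C5.6 encodes a protein with a phosphatidic acid phosphatase type 2 domain, and the summit lay 208 bp upstream of its 5′ end. W01D2.3, which encodes a receptor expression-enhancing protein, followed with a signal of 6316 and ranks of 55 in replicate 1 and 62 in replicate 3. ZK816.3 had a signal of 4628 and ranks of 156 and 118 in replicates 1 and 3, and sms-3, a putative ceramide cholinephosphotransferase gene, had 3966 and ranks of 209 and 255. W08A12.2, annotated as a neuropeptide-like protein gene, had a signal of 2989.8 and ranks of 346 and 304. Its summit lay 223 bp upstream of the W08A12.2 5′ end, in an intron of another protein-coding gene. Y43F8B.17, which encodes an M48 family peptidase, had 2989 with its summit in a coding exon, and ranks of 325 and 413. These 6 peaks stood high in both replicates.

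The next members were mostly promoters of protein folding genes. F44E5.4 and F44E5.5, a divergent pair that encodes heat shock protein 70 but is not named hsp, had a signal of 2894 and ranks of 305 in replicate 1 and 589 in replicate 3. Only 58.6% of the 36-base words around that summit occur a single time in the genome, so reads from near-identical copies may be counted there. R107.5, whose product is uncharacterized, had a signal of 2008 and ranks of 434 and 725. dnj-13, which encodes a DnaJ co-chaperone of HSP70, had 1296 and ranks of 574 and 766, and Y22D7AL.10, which encodes the 10 kDa mitochondrial heat shock protein, had 1266 and ranks of 589 and 708. unc-23, which encodes a BAG domain protein of the kind that acts on HSP70, had 1028 and ranks of 627 and 776. Of the 12 members with a signal of at least 1000, 5 held a heat shock unit within 150 bp of the summit, and these were F44E5.4 with F44E5.5, R107.5, dnj-13, Y22D7AL.10 and unc-23. The count was still 5 among the 20 strongest members, against 80 of all 378 (21.2%). Over all members, the median signal was 83.9 with the unit and 84.0 without it.

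Besides egl-15, described with the replicates, the rest of the 20 strongest members marked genes of other functions. ears-2, the gene of mitochondrial glutamyl-tRNA synthetase, shared a peak of 1121 with the divergent gene uncp-18, which encodes a syntaxin-binding protein, and this peak ranked 635 in replicate 1 and 618 in replicate 3. spe-48 and spgt-1 shared a peak of 906, the strongest on chromosome I, with ranks of 665 and 719. atx-2, the ataxin-2 gene, had 809, and idhg-1, which encodes a subunit of mitochondrial isocitrate dehydrogenase, had 584. C16C10.4, a putative SAP18 gene, and the E3 ubiquitin ligase gene rnf-121 shared a peak of 688, and T07D10.1, with a CX domain, had 677 and a B-box consensus match. C01G10.14, a major sperm protein gene, had 754, but only 28.3% of the 36-base words around its summit are unique. These peaks ranked between 635 and 717 in replicate 1.

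Most members were weak beside tRNA gene peaks. The median signal was 84.0 for the 378 members (quartiles 64.3 and 144), against 2789 for the 534 peaks within 250 bp of tRNA genes and 112 for the 928 remaining nuclear peaks. Of the members, 69 (18.3%) stood among the upper 930 reproducible peaks, against 96.3% of the tRNA peaks and 35.2% of the remaining peaks. A signal of at least 100 was reached by 146 members and of at least 500 by 25. The 3 lowest were snb-1 at 54.3, ant-1.1 at 54.4 and Y76B12C.6 at 54.5, next to the minimum of the list at 54.3. snb-1 encodes synaptobrevin and ant-1.1 the mitochondrial ADP/ATP translocase. At the edges of the rule, the closest member to a gene of the first removed class was vha-9, at 816 bp with a signal of 219.6, and the farthest peak it removed was at slc-9B.2, at 125 bp with 1642. For snoRNA and miRNA genes, the member at F37F2.2 lay 299 bp away with 297.4, and the removed peak at zip-2 lay 211 bp away with 63.1. The most upstream target position was -494 bp, at piit-1, and the most downstream 249 bp, at cpr-9.

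**Figure D1:**
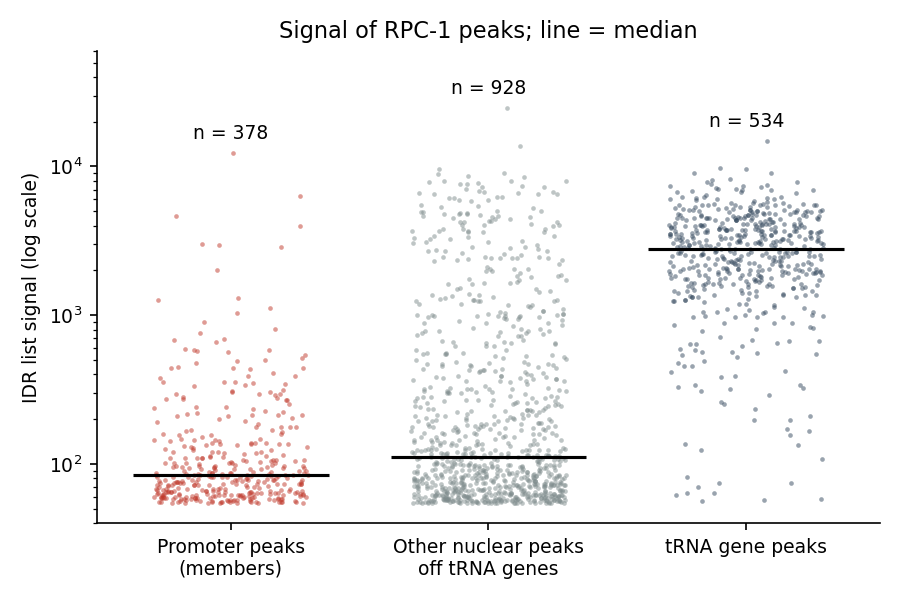
Signal in the reproducible peak list on a log axis, 1 point per peak and a line at the median, for the 378 promoter members, the 928 other nuclear peaks off tRNA genes and the 534 peaks at tRNA genes. Most members lie near the floor of the list, with a median of 84.0 against 2789 at tRNA genes, and 12 members reach 1000.

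Summits lay mostly upstream of the 5′ end, within a window of which 66.7% is upstream by the rule. The median position relative to the nearest 5′ end was -172 bp (quartiles -282 and -71.2), and 331 members (87.6%) were upstream of it. Between 100 and 300 bp upstream lay 184 members (48.7%). By annotation, 318 summits (84.1%) lay outside protein-coding genes, 27 in coding exons, 19 in untranslated exons and 14 in introns. The annotated 5′ end is often the site of trans-splicing in this species and not the start of transcription, so distances to the true start are unknown.

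**Figure D2:**
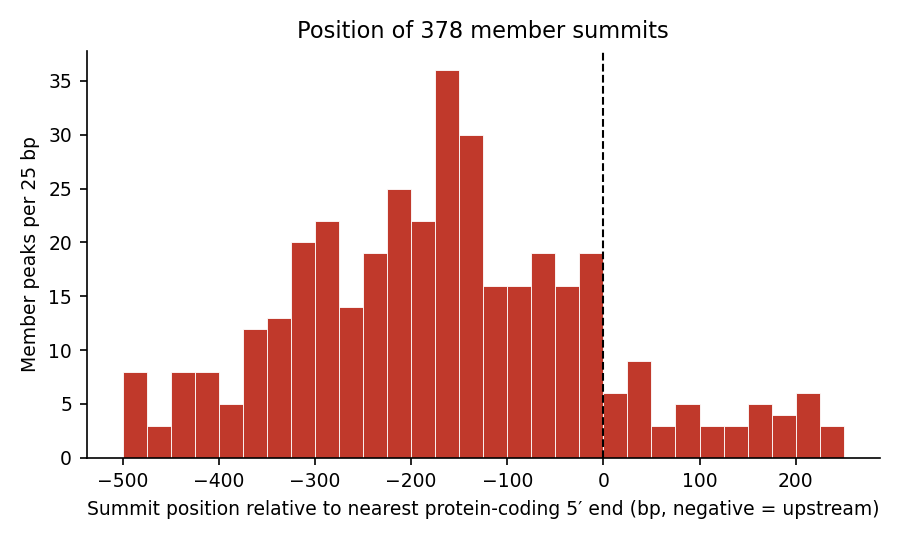
Position of the member summits relative to the nearest annotated protein-coding 5′ end, as peaks per 25 bp, with upstream negative and a dashed line at the 5′ end. The summits are most frequent between 300 and 100 bp upstream, and 87.6% lie upstream.

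Some members lay in the promoters of divergently transcribed genes. A single summit marked more than 1 gene in 90 members (23.8%), of which 88 marked 2 genes and 2 marked 3. Of all bases in promoter windows, 6.46% lie in the windows of 2 or more genes of any arrangement. Divergent gene pairs accounted for 85 members (22.5%), and no such share was taken over promoters in general. Some of these summits lay inside 1 of the genes, as in spd-5, which shares its peak with npp-6. The median signal was 109 for the divergent members, against 78.2 for the other 293. Among the divergent members, dnj-29 and ndua-2 shared a peak of 306, eri-6 and eri-7 shared a peak of 204, and hxk-2 and cdk-9 shared a peak of 314. dnj-29 encodes a J domain co-chaperone and ndua-2 a subunit of respiratory complex I, while eri-6 and eri-7 act in RNA interference, and hxk-2 encodes a hexokinase and cdk-9 a transcription elongation kinase. Genes that share a peak count separately below, and which of them the peak belongs to cannot be told from its position.

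Members were spread over all 6 nuclear chromosomes. There were 79 on I, 57 on II, 61 on III, 46 on IV, 74 on V and 61 on X. Relative to gene number they were densest on I, with 36.4 protein-coding genes per member, and sparsest on IV, with 71.3. The other chromosomes had 60.5 on II, 43.3 on III, 67.5 on V and 44.8 on X. The share of member peaks on X was 16.1%, against 44.9% of tRNA peaks and 23.9% of the remaining nuclear peaks. Counted by gene, 64 of the 466 targets lay on X, a share close to that of protein-coding genes (2730 of 19971, 13.7%). The strongest on each autosome were spe-48 with spgt-1 on I, W01D2.3 on II, sms-3 on III, ears-2 with uncp-18 on IV and W08A12.2 on V, and T13C5.6 was the strongest on X.

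Lists of chaperones, translation factors, nuclear transport and mitochondrial respiration held the largest shares of target genes. Of 19869 protein-coding genes outside the rpl, rps and hsp families, 466 (2.35%) were targets, which is the background for each list below. Targets made up 332 of 11164 genes with a gene-class symbol (2.97%) and 134 of 8705 genes with a sequence name only (1.54%), so lists built from symbols start from the higher of these shares. Of the 27 functional lists, 17 had a share above 2.35% and 16 a share above 2.97%. The lists were built from symbols and are incomplete, so a target may belong to a function without being in its list, as the examples below show. An uncharacterized product was annotated for 4.72% of targets, against 9.37% of all protein-coding genes.

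**Figure D3:**
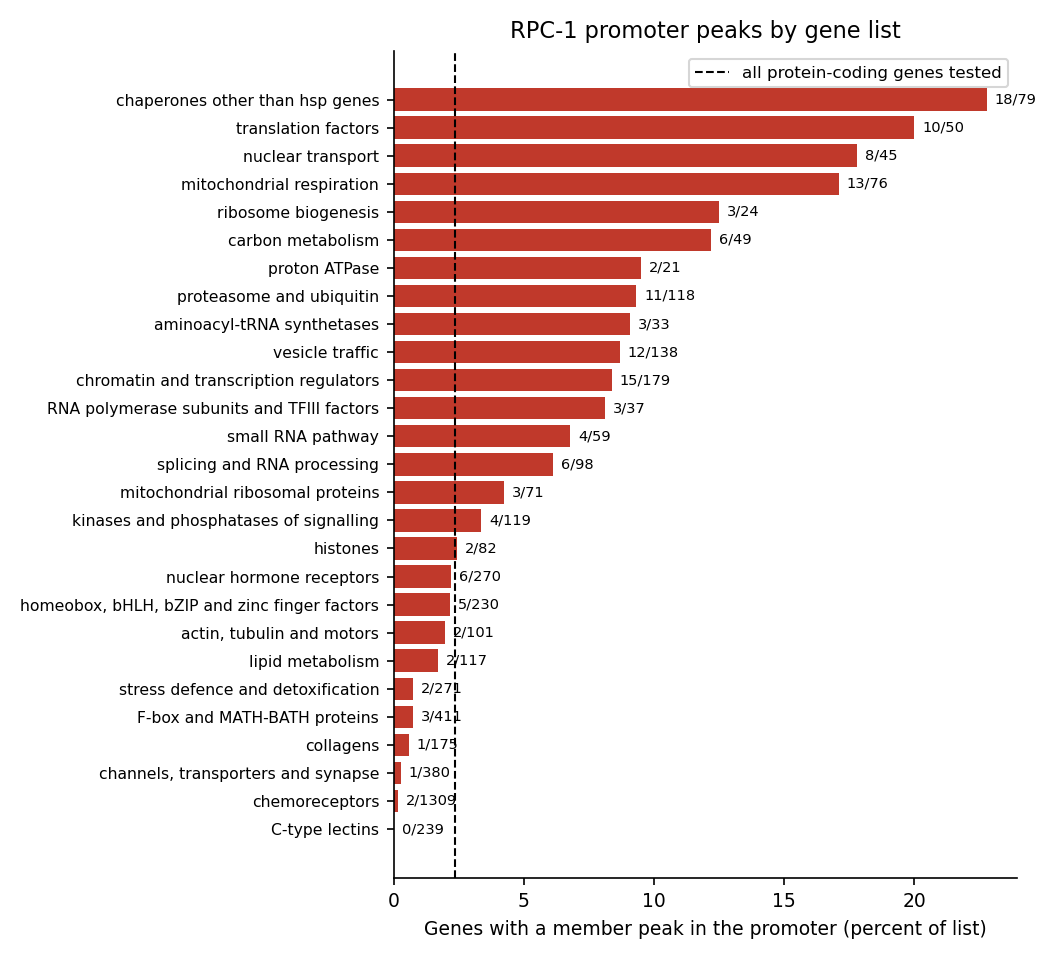
Percent of the genes in each functional list that had a member peak in their promoter, with the number of targets over the number of genes beside each bar and a dashed line at the 2.35% of all genes considered. Chaperones, translation factors, nuclear transport and mitochondrial respiration lie at the top, from 17.1% to 22.8%, and chemoreceptors and C-type lectins at the bottom.

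Chaperone genes other than hsp had the highest share, with 18 of 79 (22.8%) and a median peak signal of 106. Besides dnj-13, the strongest were dnj-12 at 379 and dnj-29 at 306, which encode J domain co-chaperones, and bag-1 at 195, which encodes a BAG family regulator of HSP70. dnj-12 ranked 778 in replicate 1 and 917 in replicate 3, and bag-1 ranked 919 and 1152. Others in the list encode cyclophilins and subunits of the CCT chaperonin and of prefoldin. A heat shock unit lay within 150 bp of the summit in 11 of these 18 peaks, against 80 of all 378 members (21.2%). Let the top set of a replicate be as many of its strongest peaks as the reproducible list holds. The count of chaperone targets was 9 when promoters were called from the top set of replicate 3 alone, 14 from that of replicate 1 alone, and 7 among members in both top sets. Targets of all kinds numbered 337 (1.69% of protein-coding genes), 457 (2.29%) and 197 (0.986%) in these settings, against 466 by the main rule. The same totals apply to the replicate counts of the lists below.

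Translation factors came next, with 10 of 50 genes and a median peak signal of 90.8. erfa-3, the gene of a translation termination factor, had a signal of 584 and ranks of 716 in replicate 1 and 750 in replicate 3. pek-1, which encodes a kinase of the initiation factor eIF2 alpha, had 148 and ranks of 987 and 1510. iff-2, which encodes eIF5A, had 132 and ranks of 966 and 3364, while eef-1A.2, an elongation factor gene, ranked 1069 in replicate 1, with no replicate 3 peak. Only 2 translation factor targets stood in both top sets, and 4 were called from replicate 3 alone. Aminoacyl-tRNA synthetases, which charge the tRNAs that RNA polymerase III makes, were 3 of 33 (9.09%): ears-2, iars-2 at 59.0 and tars-1 at 57.6. In replicate 3, iars-2 ranked 6237 and tars-1 had no peak.

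Nuclear transport genes numbered 8 of 45 (17.8%), with a median peak signal of 141. They included the nucleoporin genes npp-8 at 355 and npp-6 at 276, the importin alpha gene ima-1 at 291, and ran-3 at 166, which encodes the exchange factor of the GTPase Ran. npp-8 ranked 803 in replicate 1 and 837 in replicate 3, ima-1 ranked 868 and 883, and npp-6 ranked 852 and 915. The ranks of these 3 genes were close in the replicates, but those of weaker members of the list were not: imb-3 ranked 1205 and 16630, ima-2 ranked 2229 and 19381, and npp-3 had no replicate 3 peak. The count was 5 when called from replicate 3 alone and 5 among members in both top sets.

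Mitochondrial respiration contributed 13 of 76 genes (17.1%). Its strongest targets were ndua-2 at 306, the ATP synthase genes atp-2 at 159.5 and atp-1 at 145, and cox-5A, a cytochrome c oxidase subunit gene, at 145. atp-2 ranked 1016 in replicate 1 and 1301 in replicate 3, and cox-5A ranked 1067 and 1098. The count was 7 when called from replicate 3 alone and 7 among members in both top sets. Central carbon metabolism had 6 of 49 (12.2%): idhg-1, hxk-2, aco-2 at 78.9, tkt-1 at 76.1, fum-1 at 72.7 and gpd-2 at 64.4. The aconitase, transketolase, fumarase and glyceraldehyde-3-phosphate dehydrogenase genes at the end of that list had ranks in replicate 1 between 1316 and 1500, and fum-1 and gpd-2 had no replicate 3 peak. Mitochondrial ribosomal proteins were 3 of 71 (4.23%), with mrpl-39 at 134, mrpl-28 at 59.6 and mrps-7 at 57.1.

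Genes of ribosome making, transcription and protein turnover had intermediate shares. Ribosome biogenesis had 3 of 24 (12.5%), with nog-1 at 71.3, rbd-1 at 62.7 and pro-1 at 55.4. None of these stood in both top sets, nog-1 ranked 11881 in replicate 3 and rbd-1 had no replicate 3 peak. Some targets outside that list whose products are annotated with ribosome making had higher signals, with krr-1 at 275, C34E10.10 at 159.5 and rrsr-1 at 137. The C34E10.10 peak is the one shared with atp-2. Others of this kind were weaker, such as rsl-24D1 at 99.1, tsr-2 at 79.5 and T10B5.3 at 66.4. RNA polymerase subunits and TFIII factors had 3 of 37 (8.11%). The strongest was rpac-19 at 222, the gene of a subunit shared by RNA polymerases I and III, with ranks of 909 in replicate 1 and 962 in replicate 3. rpb-11 at 64.8 and rpb-4 at 59.0 encode subunits of RNA polymerase II, and ranked 5952 and 13306 in replicate 3. Chromatin and transcription regulators had 15 of 179 (8.38%), led by swsn-3 at 443, a gene of the SWI/SNF chromatin remodelling complex, with cdk-9 at 314, taf-10 at 186 and mdt-9 at 157. The RefSeq product of mdt-9 is a guanine nucleotide exchange factor, and the product Mediator complex subunit 9 stands with Y62E10A.23, which shares the peak. Proteasome and ubiquitin genes had 11 of 118 (9.32%), led by cdc-48.1 at 271, which encodes a protein-unfolding ATPase, and uba-5 at 227, ubc-12 at 156 and eel-1 at 109, which encode enzymes that attach ubiquitin or ubiquitin-like proteins.

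Membrane traffic and RNA processing genes were also among the targets. Vesicle traffic had 12 of 138 (8.70%), with the GTPase gene arf-6 at 432, the signal peptidase gene spcs-2 at 255, vps-39 at 127 and tfg-1 at 125. The vacuolar proton ATPase contributed vha-9 at 219.6 and vha-8 at 81.3, 2 of 21 (9.52%). Splicing and RNA processing had 6 of 98 (6.12%): cpf-2 at 354, rnp-6 at 270.1, uaf-2 at 76.9, hrpk-1 at 73.4, cids-2 at 61.6 and rsp-6 at 58.2. The small RNA pathway had 4 of 59 (6.78%), which rest on 3 peaks, since eri-6 and eri-7 share a peak. rde-10, needed for RNA interference, shared a peak of 270.1 with rnp-6, and vig-1 had 93.8.

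Some lists lay within 1.5 times the background. Signalling kinases and phosphatases had 4 targets (3.36%), with kin-14 at 121, aakb-2 next, pkc-3 at 94.9 and kin-29 at 79.8. Histones had 2 of 82 (2.44%), his-37 at 239 and htz-1 at 73.7. Nuclear hormone receptors had 6 of 270 (2.22%), with nhr-68 strongest at 201 and nhr-47, nhr-35, nhr-58, nhr-49 and nhr-212 between 56.9 and 78.5. The list of homeobox, bHLH, bZIP and zinc finger factors also takes in transcription factors of other classes, such as ets-4 and mef-2. It had 5 of 230 (2.17%): mxl-3 at 90.3, ets-4 at 75.1, atf-4 at 73.8, mef-2 at 71.7 and skn-1 at 65.4. atf-4 and skn-1 encode regulators of stress responses. Actin, tubulin and motor genes had 2 targets (1.98%), myo-2 at 573 and cap-2 at 95.6. Lipid metabolism had 2 of 117 (1.71%), mboa-2 at 66.9 and acdh-2 at 62.2, while the phospholipid and sphingolipid enzyme genes sms-3 at 3966 and cept-2 at 136 were targets outside that list.

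Some large gene families held few targets. Chemoreceptors, a very large family of sensory neuron receptors, had 2 of 1309 (0.153%), sri-5 at 73.3 and srd-66 at 59.5, and C-type lectins had 0 of 239. Channels, transporters and synaptic genes had 1 of 380 (0.263%), snb-1, although lgc-55, a ligand-gated channel gene, at 410.1, uncp-18 at 1121, cnnm-2 at 86.3, wht-7 at 55.8 and ent-6 at 55.5 were targets of related function outside that list. Collagens of the cuticle had 1 of 175 (0.571%), col-42 at 77.5. Stress defence and detoxification genes had 2 of 271 (0.738%), gst-20 at 85.4 and gst-1 at 56.1. F-box and MATH-BATH genes had 3 of 411 (0.730%), namely fbxc-44 at 308, fbxb-72 at 147 and bath-36 at 109. By product, 7 of 500 genes annotated as F-box were targets (1.40%). Markers of germline, intestine, muscle, neurons and hypodermis were targets at the background share, with 2 of 86 (2.33%), namely spn-4 at 439, whose summit lay at -394 bp, and snb-1. The lists were too short to tell tissues apart, with 1 of 22 for germline, 1 of 15 for neurons, 0 of 19 for intestine and 0 of 15 each for muscle and hypodermis.

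The B-box was found in few members, though in a larger share of them than of promoters in general. Its high share at the other peaks follows from the rule, which removed peaks near tRNA genes from the members. The core GTTCGANNC occurred within 150 bp of the summit in 14 members (3.70%), against 72.8% of tRNA peaks, 17.5% of the remaining nuclear peaks and 1.58% of all 19971 protein-coding promoters, taken as 250 bp before to 50 bp after the 5′ end. Among windows of 35 to 45% GC, the core was in 7 of 226 members (3.10%) and 147 of 8265 promoters (1.78%). The longer B-box consensus, added after the first windows were read, occurred in 7 members (1.85%), against 81.8% of tRNA peaks, 130 of the 928 remaining peaks and 0.250% of promoters. The 7 had a median signal of 677, against 83.5 for the members without it. Because windows had been read before the consensus was added, and 3 of the 7 are among the 8 strongest members, this gap is no support. For the core, the median signal was 95.6 in members with it and 83.7 in those without. The 7 members with the consensus included lgc-55 at 410.1, F59C12.4 at 67.8 and ari-1.2 at 65.3, besides T13C5.6, ZK816.3, sms-3 and T07D10.1 described above. None of the 85 divergent members held the core or the consensus. The A-box core TGGCNNAGT was found in 19 members (5.03%), 64 of 534 tRNA peaks and 2.18% of promoters.

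GC-rich elements were more frequent at members than at promoters in general. The letters GGGCGG, on either strand, were present in 91 members (24.1%), against 12.5% of tRNA peaks, 93 of the 928 remaining nuclear peaks and 7.81% of all promoters. Members among the upper 930 peaks held it in 33 of 69 (47.8%), and the weaker members in 58 of 309 (18.8%). It was present in 35.3% of divergent members and 20.8% of the others. Median GC content was 39.8% in member windows and 34.3% in promoters. It was higher still, at 41.7%, in all other nuclear peaks, of which 10.9% held the element. Among windows of 35 to 45% GC, the element was in 45 of 226 members (19.9%) and 965 of 8265 promoters (11.7%), a smaller ratio than over all windows.

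The letters CTGCGTCT, searched after they had been seen in the F44E5.4 and R107.5 windows, were found on either strand in 52 members (13.8%), against 3.93% of tRNA peaks, 7.97% of the remaining nuclear peaks and 3.53% of promoters. Within 35 to 45% GC, 32 of 226 members (14.2%) and 457 of 8265 promoters (5.53%) held them. Unlike GGGCGG, they were not more frequent in the stronger members, with 6 of 69 (8.70%) among the upper 930 and 46 of 309 (14.9%) below. The remaining elements differed less or in the other direction. The heat shock unit was in 21.2% of members and 18.5% of promoters, CACGTG in 8.47% and 5.82%, TGACGTCA in 2.65% and 1.49%, and GAGAGAGA in 5.03% and 3.46%. TATAAA was in 23.8% of members and 37.9% of promoters, TGATAA in 20.9% and 30.2%, and TTTTCAG in 26.5% and 32.3%.

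**Figure D4:**
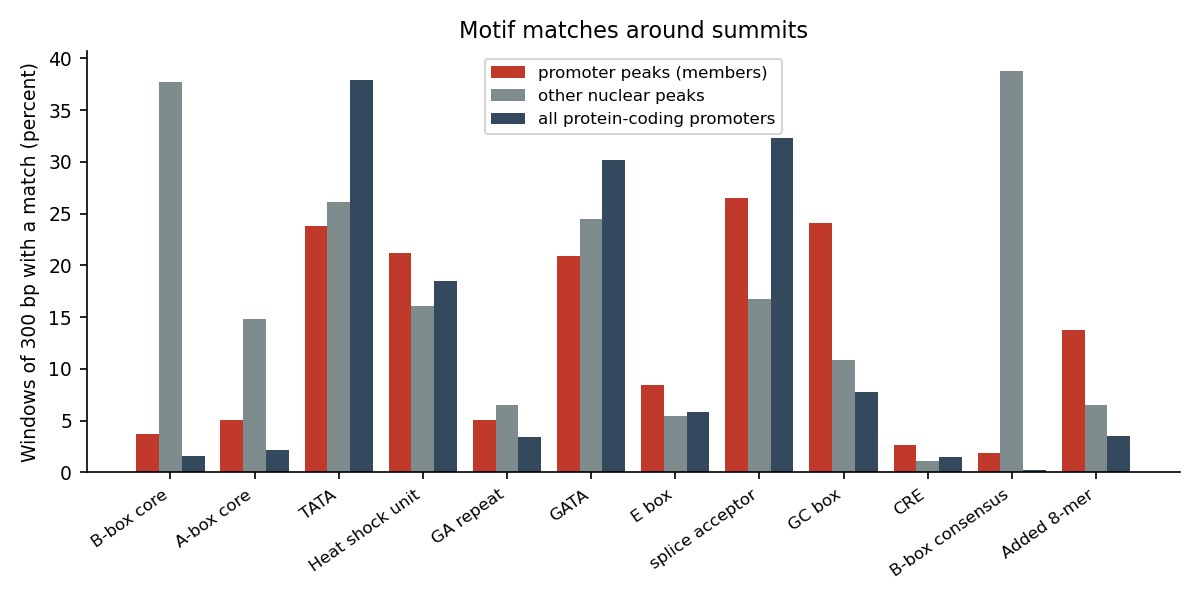
Percent of 300 bp windows that held each element on either strand, for the 378 promoter members, all 1462 other nuclear peaks and all 19971 protein-coding promoters. The B-box core and consensus are high at the other peaks, which hold the tRNA genes by the rule, and higher at members than at promoters, and the GC box (GGGCGG) and the added element of 8 letters (CTGCGTCT) are higher at members than in both other groups. The bar named E box stands for the letters CACGTG, that named CRE for TGACGTCA and that named splice acceptor for TTTTCAG.

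In sequence repetition and in the nearness of other non-coding genes, members were close to promoters in general. The median window within 250 bp held only unique 36-base words in members and at all 5′ ends, against 93.8% unique words in the 1462 other nuclear peaks, and 16 members fell under 70%. A non-coding RNA gene outside the removed classes lay within 250 bp of 37 members (9.79%), against 8.32% of protein-coding genes taken at 150 bp upstream. In 22 of these members the summit lay inside the gene, and no such share was taken over promoters in general. The strongest members, at T13C5.6, W01D2.3 and ZK816.3, were among the 22.

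The replicates differed in how well they held the members. A peak with a summit within 250 bp was present in the replicate 1 list for 372 members, in the replicate 3 list for 334 and in both for 328 (86.8%). The top set of replicate 1 held 306 members (81.0%), against 89.3% of the other nuclear peaks, and that of replicate 3 held 173 members (45.8%), against 73.8%. Both top sets held 149 members (39.4%). These were 65 of the 69 members in the upper 930 reproducible peaks (94.2%) and 84 of the 309 below (27.2%). Across the 328 members in both lists, Spearman's rho of the ranks was 0.595, given as a description, since these peaks share their libraries.

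**Figure D5:**
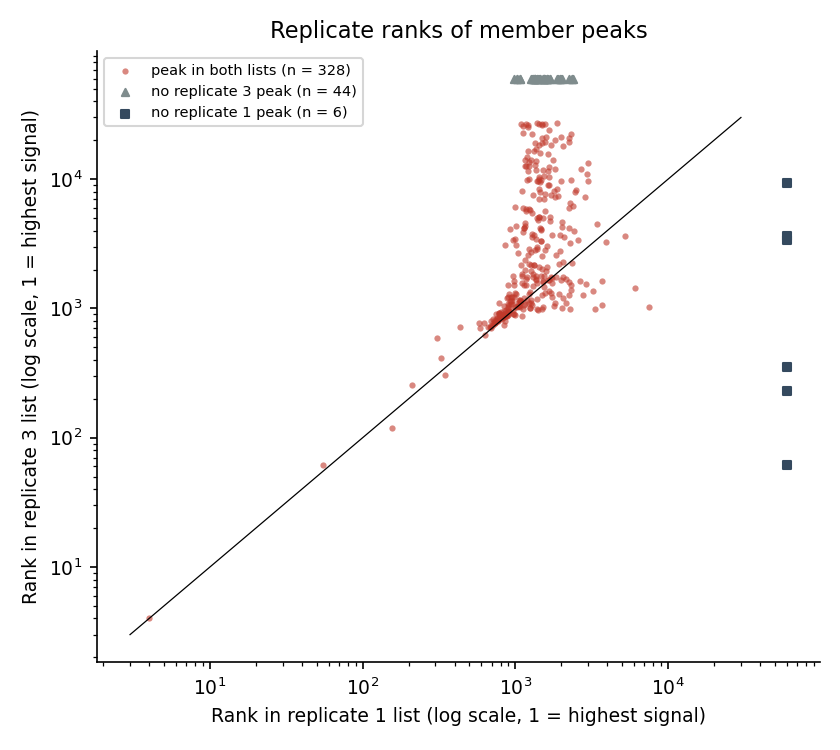
Rank of each member in the replicate 1 list against its rank in the replicate 3 list, both on log axes with 1 as the highest signal, and a line of equal rank. Triangles at the top mark the 44 members with no replicate 3 peak and squares at the right the 6 with no replicate 1 peak. Ranks lie near the line down to about the 1000th peak and spread widely below it.

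The widest gaps were at members with signals between 54.7 and 106. F01G4.6 with pfd-1 ranked 7494 in replicate 1 and 1035 in replicate 3, gst-20 ranked 6108 and 1450, and ubc-3 ranked 3710 and 1064. In the other direction, sco-1 ranked 1086 in replicate 1 and 26555 in replicate 3, F42A10.9 ranked 1117 and 25581, and icd-2 ranked 1175 and 26489. The strongest members with no replicate 3 peak were kin-14 at 121 and the shared promoter of npp-3, a nucleoporin gene, and top-2, a topoisomerase gene.

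In replicate 3, egl-15 and myo-2 stood apart. egl-15 encodes the fibroblast growth factor receptor and myo-2 the myosin heavy chain of pharyngeal muscle. The egl-15 promoter held 2 members, with summits 449 bp apart and signals of 659.8 and 593, and myo-2 held 1 with 573. At these summits the strongest replicate 3 peaks within 250 bp ranked 61, 230 and 355, while replicate 1 had no interval over any of them, and its nearest summits lay 1258, 1707 and 984 bp away. Of the 930 strongest replicate 3 peaks, 16 nuclear ones had no replicate 1 summit within 250 bp, of which 15 were on X, 13 had egl-15 as their nearest protein-coding gene and 1 had myo-2. The interval over both egl-15 summits in replicate 3 was 4706 bp wide. In the other direction, 4 of the 930 strongest replicate 1 peaks had no replicate 3 summit. The labels give the same strain for both samples, and no input DNA was analysed here, so more copies of these loci in the DNA of replicate 3 and more RPC-1 on them cannot be told apart. The cause was not tested, and the signals at egl-15 and myo-2 carry this doubt wherever they are counted as targets. The other members with no replicate 1 peak were nta-1 at 93.5, srd-66 and Y76B12C.6. Without the egl-15 and myo-2 peaks, the actin, tubulin and motor list kept cap-2 alone, no other list count moved, and the share of members on X was 15.5%.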

How the data were processed

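The authors deposited peak lists on ce11 (2 replicate lists, a pooled list and a list thresholded by the irreproducible discovery rate, IDR), made with a control alignment per the file descriptions. The sources used here do not name the caller or aligner, and the ce10 lists were not used. The signal of each peak is the authors' deposited enrichment score and was compared only within a list. Replicates were related by ranks, through the strongest peak with a summit within 250 bp. Genes and sequence came from the RefSeq annotation of the same assembly (WBcel235). A summit in an rpl, rps or hsp promoter removed the peak even where another gene shares that promoter, as in 14 of 28 cases.

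Members and lists were chosen with earlier results of these data known. Some list patterns were trimmed after the strongest members had been seen, and 1 gene added then was taken out again. Genes were named by rule: targets of the 20 strongest members, up to 4 per list (all in lists of 6 or fewer), the strongest per chromosome, the 3 largest rank ratios in each direction and the 3 lowest. Others were named after their values were seen: genes with a B-box, of a list's function but outside it, without a peak in a replicate, sharing a promoter or at the edges of the rule. No statistical test was run, since there was 1 group and peaks are not replicates. The member rule was tested on planted peaks. Alternatives are listed in the closing section. Python 3.11.15, pandas 2.3.3, NumPy 2.4.6 and SciPy 1.17.1 were used.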

Additional observations from a re-analysis of the deposited data

How the results depend on the processing

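With the upper 930 reproducible peaks, there were 69 members and 90 targets (0.451% of genes), 7.25% on X, 92.8% upstream, 31.9% at shared promoters and a median signal of 391. With members in the top sets of both replicates, there were 149 members and 197 targets (0.986%), 91.9% upstream, 30.9% shared and a median of 177. Promoters of 250 bp on both sides gave 305 targets (1.53%), 82.5% upstream and 14.1% shared. Promoters of 1000 bp upstream gave 3.00% and 30.4% shared, and leaving out every promoter within 250 bp of a non-coding RNA gene gave 2.10%. The B-box consensus in place of the core gave 1.85%, as chosen after seeing the data. Calling members from 1 replicate gave 1.69% of genes without replicate 1 and 2.29% without replicate 3, and 80.6% and 88.8% upstream. Of 32 gene list counts, 27 moved by over 1.5 times with the upper 930 peaks, 24 with both top sets, 15 with promoters of 250 bp on both sides, 14 without replicate 1 and 11 without replicate 3. These were counts and not shares. Targets as a whole fell to 90, 197 and 305 with the upper 930 peaks, both top sets and 250 bp promoters. List counts would fall in those settings even at unchanged shares. No paired analysis was possible because the result comes from no test. Depth is unknown, so absence from a list is no absence of binding.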

Other observations

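Product words in the annotation, chosen after the targets had been seen, grouped genes that the symbol lists miss. Products with protein folding words were targets in 21 of 94 genes (22.3%), including F44E5.4, F44E5.5, Y22D7AL.10 and unc-23, which no symbol list held. Nucleoporin or importin products were targets in 6 of 25 genes (24.0%) and products called mitochondrial in 25 of 299 (8.36%), against 2.35% of all genes considered. RNA-binding or splicing products were targets in 10 of 108 genes (9.26%). F-box products were targets in 7 of 500 genes (1.40%), and G-protein coupled receptors in 2 of 1596 (0.125%).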
